A study of Gallus gallus with 8 samples.

Results

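The 9 genes described here encode fibulins, fibrillins, elastin and a microfibril-associated glycoprotein: EFEMP1, EFEMP2, FBLN1, FBLN2, FBLN5, FBN1, FBN2, ELN and MFAP5. They were followed on Affymetrix arrays of chick growth plate chondrocytes through every probe set, a group of short probes against one transcript region, whose single symbol in the platform annotation is one of these genes. That rule found 20 probe sets of 8 genes, among 38439 probe sets and 13009 genes tested. EFEMP2 had no such probe set and was not analysed here.

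The chondrocytes came from the growth plate of the tibiotarsus, the main long bone of the chick's lower leg. Proliferative cells, from chicks 3 weeks old, were measured on 4 arrays, and hypertrophic cells, from chicks 1 day old, on 4 further arrays. Each sample was a pool of isolated cells, and no treatment, strain or genotype is stated in the labels. Age differs between the groups wherever cell stage does, so the effects of stage and age cannot be told apart. The labels do not say whether the samples of a group are from different birds, so the p-values reflect only how far these samples scatter, which may be technical.

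Elastic fibres have a core of elastin that is laid down on a scaffold of fibrillin microfibrils. Fibulins are secreted glycoproteins that link elastin, microfibrils, basement membranes and crosslinking enzymes. Fibrillin microfibrils also hold latent growth factors of the TGF-beta and BMP families in the matrix, and human FBN1 mutations cause Marfan syndrome, with overgrowth of the long bones.

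The deposited values are log2 values made by RMA, a method that subtracts background, brings arrays to a common distribution and gives 1 value per probe set. A background level of 4.75 was taken as the highest, over the 8 arrays, of the 95th percentiles of 744 viral and reporter probe sets. Precision is limited by the number of arrays. In both stages array 3 was almost a copy of array 4. The SD of that pair's differences, over 5344 bright probe sets, was 0.175 (proliferative) and 0.194 (hypertrophic), whereas every other within-stage pair had 0.365 to 0.958. The main results are therefore repeated after arrays 3 and 4 of a stage were merged into their mean. Of 14 chondrocyte markers, none was below background in both groups and 4 fell in hypertrophic cells, while 5 of 8 proliferation markers fell and 2 of 10 hypertrophy markers rose, where 7.34% of all genes were higher and 5.6% lower. After averaging arrays 3 and 4, 1, 2 and 1 of these passed, where 2.01% of all genes were higher and 1.24% lower. The hypertrophy markers that rose were MMP13 and SPP1, and the other 8 did not pass. Among those 8 was COL10A1, the collagen X gene (difference 0.66 ± 0.43, limma adjusted p = 0.44). It read 13.89, 13.74, 14.32 and 14.29 in hypertrophic and 11.99, 13.42, 14.14 and 14.07 in proliferative cells, so the groups overlapped. COL10A1 was named after its values were seen. RNA quality, read as the 3′ minus 5′ difference of the control genes ACTB, GAPDH and EEF1A1, differed between groups by -0.17, 0.13 and 0.02 (exact permutation test, two-sided, p = 0.6, 0.229 and 0.743, adjusted p = 0.743, 0.686 and 0.743; the smallest p that 4 against 4 arrays allow is 0.0286).

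The genes were selected on their measured values on these 8 arrays, with the contrast between the stages already known. Their differences are therefore a description, with a standard error and no p-value. Every difference is a log2 value in which the proliferative mean is taken from the hypertrophic mean.

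EFEMP1, which encodes fibulin-3, a secreted protein with calcium-binding EGF-like domains, was the member with the largest difference between the stages. Its 4 hypertrophic arrays read 10.55, 12.24, 12.06 and 12.14, and its 4 proliferative arrays read 5.10, 6.82, 6.71 and 6.57. The groups did not overlap, every array lay above background, and array 1 was the lowest of its group in both. The hypertrophic mean was 11.75 ± 0.80 and the proliferative mean 6.30 ± 0.81 (SD, n = 4). The difference was 5.44 ± 0.47 (SE), or 43.5-fold, with a 95% confidence interval from 4.38 to 6.51. With arrays 3 and 4 averaged it was 5.44 ± 0.59. Only 2 of 13009 genes had a larger positive difference by the probe set that represents each, the one with the highest mean over the 8 arrays.

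The distance of array 1 from the other arrays of EFEMP1 was nearly the same in both stages. Array 1 lay 1.60 below the mean of the other 3 arrays in proliferative cells and 1.59 below it in hypertrophic cells. The SD of EFEMP1 among proliferative arrays was at the 99.1th percentile of all probe sets, and that among hypertrophic arrays at the 96.0th. Over all 38439 probe sets, 103, or 0.268%, had array 1 more than 1 below the mean of the other arrays in both groups. In hypertrophic cells 1997 probe sets had array 1 that far below, and in proliferative cells 203. A low array 1 was thus more frequent in hypertrophic than in proliferative cells. Of the 1726 probe sets that passed as higher in hypertrophic cells, array 1 was the lowest hypertrophic array in 1068, or 61.9%. The difference between stages was 5.04 without proliferative array 1 and 5.84 without hypertrophic array 1. It was 5.43 from arrays 1 and 2 alone, and 5.45 from arrays 3 and 4.

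**Figure D1:**
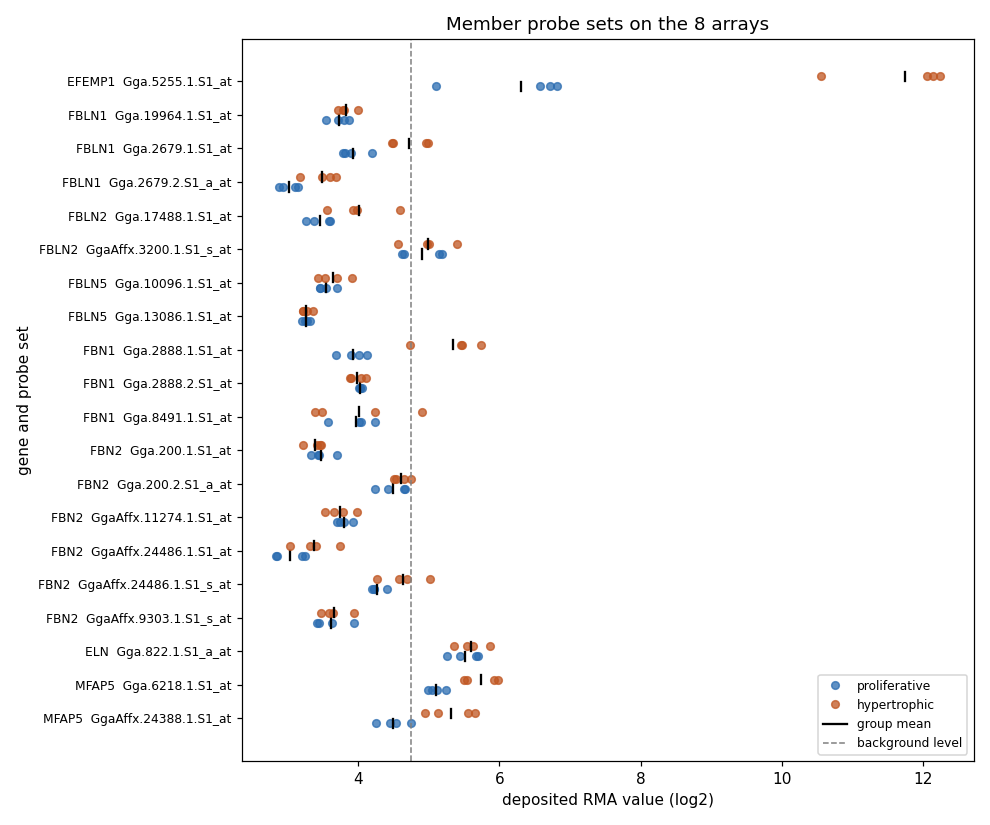
Deposited RMA value (log2, horizontal axis) of the 20 member probe sets on the 4 proliferative (blue) and 4 hypertrophic (orange) arrays, 1 point per array, with a black bar at each group mean and a dashed line at the background level of 4.75. EFEMP1 is high and well apart between the groups, while both group means of 14 of the 20 probe sets lie below background.

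Fibrillins form the microfibrils themselves. FBN1 was measured by 3 probe sets, and the brightest was the one with a group mean above background. It read 4.74, 5.45, 5.47 and 5.74 on the hypertrophic arrays and 4.13, 3.89, 4.01 and 3.68 on the proliferative arrays. Hypertrophic array 1 was the lowest of its group, as in 61.9% of all probe sets that passed as higher. The groups did not overlap, and every proliferative array lay below background. The difference was therefore at least 0.60, the hypertrophic mean of 5.35 ± 0.43 against the background level, with an estimate of 1.42 ± 0.21 (SE, n = 4). With arrays 3 and 4 averaged the estimate was 1.31 ± 0.24. It was 1.08 from arrays 1 and 2 and 1.76 from arrays 3 and 4.

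The other FBN1 probe sets did not share that pattern. One read between 3.89 and 4.11 on all 8 arrays. The third had a hypertrophic mean of 4.01 ± 0.71 and a proliferative mean of 3.97 ± 0.28 (SD, n = 4), with only hypertrophic array 3, at 4.91, above background. The higher FBN1 values in hypertrophic cells thus come from 1 of its 3 probe sets.

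FBN2, a fibrillin known mainly from embryonic tissue, had 6 probe sets, and both group means of each lay below background. Their values ran from 2.83 to 5.02 over all arrays. The highest reading was on hypertrophic array 2. No FBN2 probe set had groups that did not overlap, and at this signal a difference in FBN2 was not detectable.

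MFAP5 encodes MAGP2, a small glycoprotein that binds fibrillin microfibrils. Its representing probe set read 5.55, 5.99, 5.50 and 5.93 on hypertrophic arrays and 5.24, 5.05, 4.99 and 5.12 on proliferative arrays, all above background and without overlap. The difference was 0.64 ± 0.14 (SE, n = 4), or 1.56-fold, and 0.63 ± 0.15 with arrays 3 and 4 averaged. The second probe set read 5.65, 4.95, 5.55 and 5.12 against 4.74, 4.45, 4.54 and 4.25. Its groups did not overlap either, and since the proliferative arrays lay below background its difference was at least 0.56, with an estimate of 0.82 ± 0.18, and of 0.78 ± 0.21 with arrays 3 and 4 averaged. Both probe sets of MFAP5 thus lay higher in hypertrophic cells.

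Elastin, ELN, the core protein of the elastic fibre, was measured by 1 probe set. It read 5.36, 5.86, 5.54 and 5.62 in hypertrophic and 5.67, 5.70, 5.26 and 5.44 in proliferative cells. All 8 arrays lay above background and the groups overlapped. The difference was 0.08 ± 0.14 (SE, n = 4), with a 95% confidence interval from -0.25 to 0.40. That interval is far from the difference of EFEMP1, though it does not show that the elastin levels are equal.

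FBLN5, which in mice is needed to assemble elastic fibres and which binds elastin and LOXL1, had 2 probe sets. They read between 3.21 and 3.92 on all arrays, below background, so the transcript was not detectable above it in either stage. FBLN2, a large fibulin of basement membranes and vessel walls, had 1 probe set with means above background. Its hypertrophic arrays read 4.57, 5.39, 4.98 and 5.001 and its proliferative arrays 4.63, 4.65, 5.14 and 5.19, so the groups overlapped. The difference was 0.08 ± 0.20, with an interval from -0.38 to 0.54. The other FBLN2 probe set lay below background in both groups.

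FBLN1 encodes fibulin-1, which binds fibronectin and the cartilage proteoglycan aggrecan. The highest of its 3 probe sets read 4.47, 4.49, 4.99 and 4.96 on hypertrophic and 3.79, 4.20, 3.81 and 3.90 on proliferative arrays. The groups did not overlap, but the hypertrophic mean of 4.73 lay just under the background level of 4.75, so no size of change is given. That status depends on the level chosen: with the median array's level of 4.49, an alternative chosen after seeing the data, the hypertrophic mean lay above background, and 11 rather than 14 of the 20 member probe sets had both means below it. Hypertrophic arrays 3 and 4, the nearly identical pair, were above that level and hypertrophic arrays 1 and 2 below it. A second FBLN1 probe set also had groups that did not overlap, at means of 3.49 and 3.02, and the third overlapped.

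Over the whole set, 5 of 20 probe sets passed the threshold of adjusted p under 0.05 in the fit across all probe sets, all of them higher in hypertrophic cells, where 4.49% of all probe sets were higher, 4.27% lower and 8.76% either. They were those of EFEMP1, 1 of FBN1, 1 of FBLN1 and both of MFAP5. Nothing is read from that count, because the genes were chosen with this contrast known. In 6 of 20 the groups did not overlap, each with hypertrophic cells above and none below, where 7.06% of all probe sets lay above and 8.09% below. The median difference over the 20 was 0.11, against -0.03 over all probe sets, and 14 had differences within 0.5 of 0. Only 5 of the 20 exceeded background on at least 4 arrays. With arrays 3 and 4 averaged, the EFEMP1 probe set and 1 of FBN1 passed, where 1.11% of all probe sets were higher and 0.851% lower. The FBN1 probe set passed only barely, and it exceeded background on fewer than 4 arrays.

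**Figure D2:**
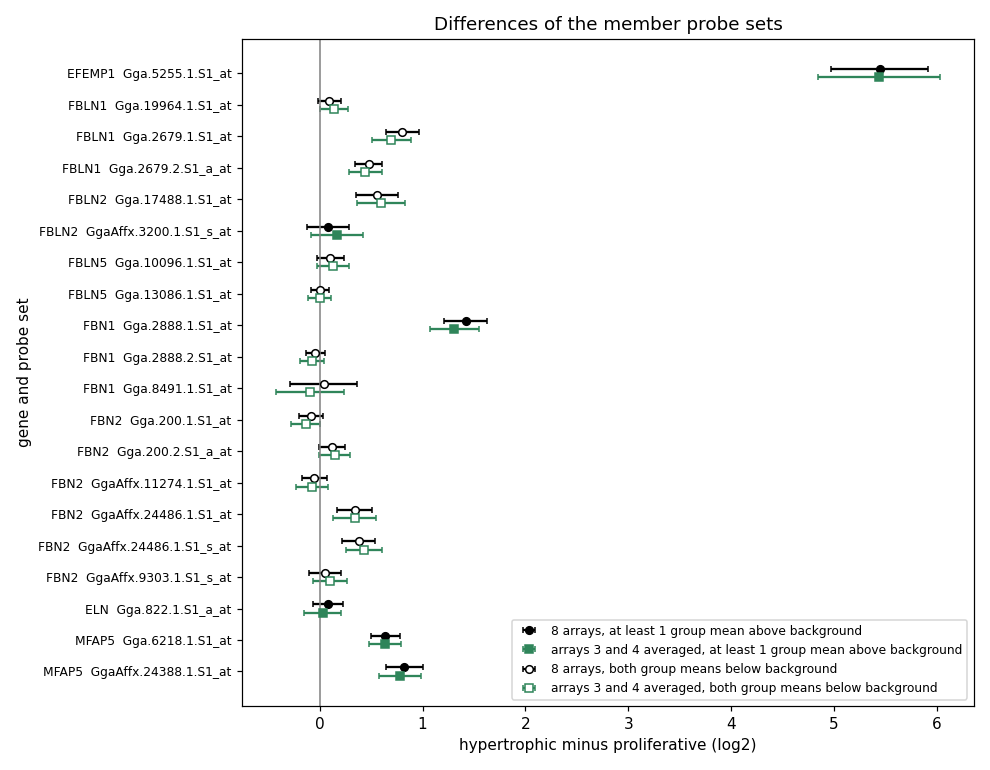
Difference between hypertrophic and proliferative cells (log2, horizontal axis) for each member probe set, with bars of 1 SE, from 8 arrays (black circles) and with arrays 3 and 4 averaged (green squares); open symbols have both group means below background. From 8 arrays, EFEMP1 lies at 5.44 and the brightest FBN1 probe set at 1.42, and all other probe sets lie between -0.09 and 0.82.

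By root mean square distance between centred values over the 8 arrays, the genes nearest to EFEMP1 were ARHGDIB, a gene abundantly expressed in blood cells, AKR1D1, a steroid reductase, and NELL2, a secreted glycoprotein, at 0.57, 0.60 and 0.69. Their differences were 4.93, at least 4.69 and at least 4.12, since the proliferative means of AKR1D1 and NELL2 lay below background. In none of them was proliferative array 1 the low array that it was in EFEMP1: it read 7.58 in ARHGDIB, within a range of 7.41 to 7.79. The member nearest to EFEMP1 was FBN1, at 2.11, which also had the next largest difference of the members, at 1.42. Centred values still hold the difference between the stages. The distance therefore largely ranks genes by how near their difference lies to that of EFEMP1. It does not show an expression pattern shared beyond that contrast.

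The other genes of elastic fibre biology were taken from 5 lists that hold 85 measured genes outside the 9. Of these, 9 were higher and 7 lower in hypertrophic cells at adjusted p under 0.05 (limma, Benjamini-Hochberg over 38439 probe sets), which is 10.6% and 8.24%, where 7.34% and 5.6% of all genes were higher and lower. With arrays 3 and 4 averaged, 1 was higher and none lower, where 2.01% and 1.24% of all genes were. At an unadjusted p under 0.05 there were 34 of the 85 on the 8 arrays. The share of all genes at that cut-off is not given here, so nothing is read from that count. The median difference of the 85 was -0.03, against -0.01 over all genes.

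Crosslinking enzymes moved in both directions. Of 21 measured genes for crosslinking and assembly, 2 rose, 4 fell and 15 did not pass, with a median of -0.11. LOXL1, the lysyl oxidase-like enzyme that in mice binds fibulin-5 and is needed to renew elastic fibres, read 10.70, 11.13, 10.76 and 10.86 in hypertrophic and 8.60, 9.12, 8.85 and 8.53 in proliferative cells. Its groups were narrow and far apart, and it rose by 2.09 ± 0.16 (SE, n = 4; limma adjusted p = 3.37e-04). It was the pathway gene that passed with arrays 3 and 4 averaged (adjusted p = 0.00915), and it passed in all 8 fits lacking 1 array.

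LOX, the founding lysyl oxidase, which fibulin-4 brings to elastin in mice, read 7.65, 10.01, 11.75 and 11.79 in hypertrophic and 4.81, 5.04, 6.88 and 7.01 in proliferative cells. The groups did not overlap, but arrays 1 and 2 were low and arrays 3 and 4 high in both. LOX rose by 4.36 ± 0.93 (adjusted p = 0.0231, limma), and passed in 2 of the 8 fits lacking 1 array and not with arrays 3 and 4 averaged (adjusted p = 0.106, limma). LOXL4 showed the same split of arrays, at 8.72, 9.81, 11.61 and 11.36 in hypertrophic and 6.68, 7.44, 9.96 and 10.10 in proliferative cells. Its groups overlapped, and its difference of 1.83 ± 0.91 did not pass (adjusted p = 0.282, limma). In a fit that blocks arrays 1 and 2 from arrays 3 and 4, the SE of LOXL4 was 0.28. LOXL4 passed in that fit (adjusted p = 0.00388, limma), though it counts arrays 3 and 4 as separate samples. The fit also takes arrays 1 and 2 of both stages as a block, and whether array numbers match between the stages was not settled. LOXL4 also passed with arrays 1 and 2 alone, with a difference of 2.203 (adjusted p = 0.0360, limma). LOX passed in these fits as well. Its SE with that block was 0.44 (adjusted p = 6.92e-04, limma), and its difference from arrays 1 and 2 alone was 3.90 (adjusted p = 0.0288, limma). Member and pathway probe sets were listed where array 1 lay more than 1 below the mean of the other 3 in both stages. Those were EFEMP1, LOX, all 3 LOXL4 probe sets and 1 probe set of FN1, the fibronectin gene. The pattern was not limited to them, since the hypertrophy markers SPP1 and MMP13 also met that rule. SPP1 read 13.27, 14.23, 14.55 and 14.51 in hypertrophic and 10.59, 11.73, 11.50 and 11.66 in proliferative cells. In EFEMP1 array 1 alone was low. In LOX, LOXL4, MMP13 and that FN1 probe set, array 2 was also below arrays 3 and 4. In SPP1 array 2 was below arrays 3 and 4 in hypertrophic cells but not in proliferative cells. LOXL4 was named after its values were seen.

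**Figure D3:**
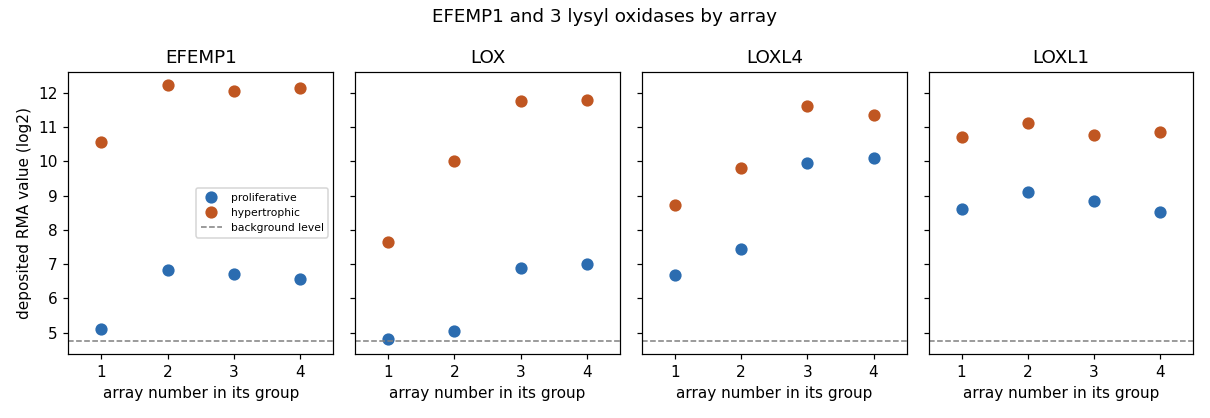
Deposited RMA value (log2, vertical axis) of EFEMP1, LOX, LOXL4 and LOXL1 on each array, by array number (horizontal axis), for proliferative (blue) and hypertrophic (orange) cells, with a dashed line at background. Array 1 is low in EFEMP1 in both groups, arrays 1 and 2 are low in LOX and LOXL4 in both groups, and the LOXL1 arrays of each group lie close together.

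LOXL3 and LOXL2, further lysyl oxidase-like enzymes, were lower in hypertrophic cells. LOXL3 fell by 1.15 ± 0.28 (adjusted p = 0.0360, limma) and LOXL2 fell by 0.97 ± 0.23 (adjusted p = 0.0346, limma). Neither passed after a further quantile normalisation (adjusted p = 0.0624 and 0.0584, limma) or cyclic loess (adjusted p = 0.0509 and 0.0576, limma). ALDH18A1, an enzyme of proline synthesis whose human mutations cause cutis laxa, fell by 1.07 ± 0.17 (adjusted p = 0.00659, limma), and GLB1, the beta-galactosidase gene that also gives the elastin-binding protein, fell by 0.60 ± 0.14 (adjusted p = 0.0340, limma). None of these 4 passed with arrays 3 and 4 averaged (adjusted p = 0.180, 0.207, 0.0681 and 0.155). ALDH18A1 passed in all 8 fits lacking 1 array, LOXL3 and GLB1 in 2 of them and LOXL2 in 1. LOXL2 and GLB1 were named after their values were seen.

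A further list held 15 measured genes of microfibrils, latent TGF-beta binding proteins and other matrix proteins, such as NID1, NID2, HMCN1, NPNT, MMRN1 and MMRN2. Of these 15 genes, 2 fell and none rose, with a median of -0.09. LTBP1, a latent TGF-beta binding protein built like the fibrillins, read 11.61, 11.06, 10.37 and 10.52 in hypertrophic and 12.08, 12.09, 12.10 and 12.004 in proliferative cells. It fell by 1.18 ± 0.25 (SE, n = 4; limma adjusted p = 0.0210). Of its 7 probe sets, 6 fell, 5 of them with proliferative means above background and falls of 0.94 to 1.84. With arrays 3 and 4 averaged, 4 of the 7 fell, but the representing probe set did not pass (adjusted p = 0.127). That probe set passed in 4 of the 8 fits lacking 1 array.

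FBLN7, fibulin-7, a cell adhesion protein known from teeth and cartilage, read 8.82, 8.62, 7.93 and 7.97 in hypertrophic and 9.21, 9.54, 9.28 and 9.28 in proliferative cells. It fell by 0.99 ± 0.21 (adjusted p = 0.0228, limma), and with arrays 3 and 4 averaged its difference of -0.88 ± 0.24 did not pass (adjusted p = 0.132). It passed in 2 of the 8 fits lacking 1 array. FBLN7 was thus lower where EFEMP1, of the same family, was higher. FBN3, the third fibrillin, had group means of 6.37 and 6.37 and a difference of -0.01 ± 0.16 that did not pass. MFAP2, which encodes MAGP1, the partner of MAGP2 on microfibrils, differed by 0.73 ± 0.24, short of the threshold (adjusted p = 0.105, limma). LTBP2 had a difference of 0.08 ± 0.15 by its representing probe set. Values of FBN3, MFAP2 and LTBP2 were chosen for mention after they were seen.

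Among 29 measured genes listed for proteins that bind fibulins or fibrillins or are otherwise linked to them, 3 rose and none fell, with a median of 0.18. SOD3, the extracellular superoxide dismutase, which binds fibulin-5 in mice, rose by 3.68 ± 0.68 (adjusted p = 0.0132, limma), from a mean of 7.21 to 10.88. TGFB2, a growth factor held latent on microfibrils, rose by 2.47 ± 0.41 (adjusted p = 0.00847, limma). BMP7, whose prodomain binds fibrillin-1, had a proliferative mean below background and rose by at least 1.73 (estimate 1.92 ± 0.44, adjusted p = 0.0291, limma). None of the 3 passed with arrays 3 and 4 averaged (adjusted p = 0.111, 0.0790 and 0.172). SOD3 and TGFB2 passed in all 8 fits lacking 1 array and BMP7 in 1. TIMP3, a metalloproteinase inhibitor that binds fibulin-3, read 10.69, 12.32, 12.73 and 12.84 in hypertrophic and 10.20, 10.58, 10.83 and 10.86 in proliferative cells. Hypertrophic array 1 lay within the proliferative range, and the difference of 1.53 ± 0.43 did not pass (adjusted p = 0.0643, limma). TIMP3 passed in 1 of the 8 fits lacking 1 array, the one without that array, with a difference of 2.01, and not with arrays 3 and 4 averaged (adjusted p = 0.244, limma). It passed after a further quantile normalisation (adjusted p = 0.0477, limma) and not after cyclic loess (adjusted p = 0.0520, limma). It also passed in the fit that blocks arrays 1 and 2 from arrays 3 and 4 (adjusted p = 0.0167, limma), but not with arrays 1 and 2 alone (adjusted p = 0.329, limma). TIMP3 was named after its values were seen.

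Of 10 measured genes of proteases known to cut elastin, 3 rose and 1 fell, with a median of 0.02. The gelatinase MMP9 rose by 3.41 ± 0.75 (adjusted p = 0.0255, limma). The cathepsins CTSV and CTSS, both elastin-cleaving in humans, rose by 3.001 ± 0.61 (adjusted p = 0.0191, limma) and 1.47 ± 0.35 (adjusted p = 0.0361, limma). The gelatinase MMP2 fell by 1.11 ± 0.22 (adjusted p = 0.0160, limma). With arrays 3 and 4 averaged the 4 had adjusted p = 0.0794, 0.129, 0.0869 and 0.105. Leaving out 1 array, MMP2 passed in 7 of 8 fits, MMP9 and CTSV in 4 and CTSS in 3. Of 11 readouts of TGF-beta signalling, 1 rose, the inhibitory SMAD7, by 1.69 ± 0.42 (adjusted p = 0.0385, limma; 0.140 with averaged arrays), and none fell. SMAD7 passed in 2 of the 8 fits lacking 1 array, and the median of the list was -0.28.

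**Figure D4:**
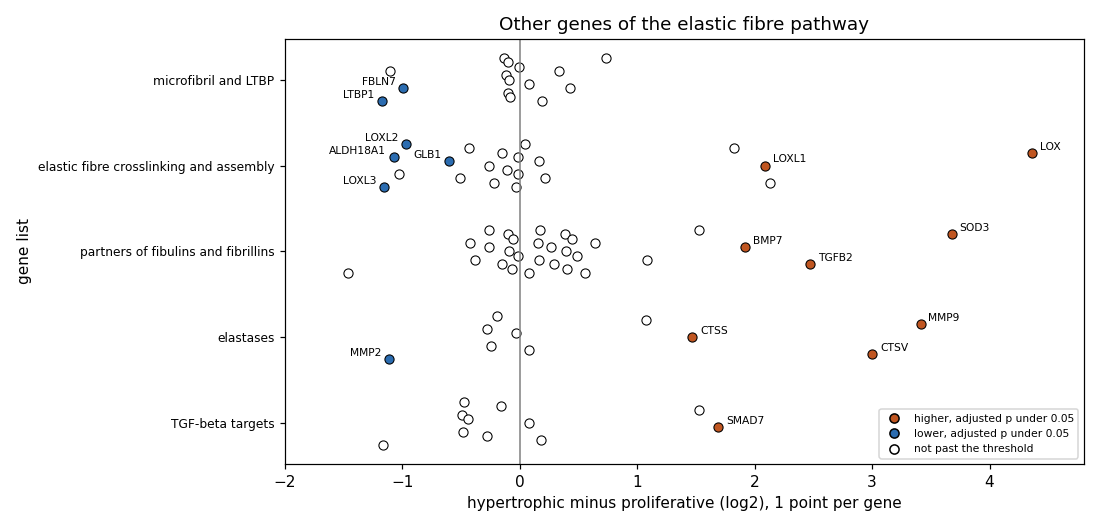
Difference between hypertrophic and proliferative cells (log2, horizontal axis) of the measured genes in 5 lists (vertical axis), 1 point per gene, with genes past adjusted p under 0.05 in orange where higher and in blue where lower and named. LOX, SOD3 and MMP9 lie farthest to the right, LTBP1, LOXL3 and MMP2 lie among the named genes on the left, and most genes lie near 0.

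Elastic fibre genes are also expressed by vessel walls, perichondrium and fibroblasts, whose markers were read on the same arrays. In these bulk samples, fewer cells of a type and less RNA per cell cannot be told apart. Of 16 endothelial markers 7 rose, or 4 with arrays 3 and 4 averaged, none fell and 2, KDR and EMCN, were below background in both groups. Over all genes 7.34% were higher, or 2.01% with averaged arrays. CDH5, the endothelial cadherin, rose by 3.06 ± 0.33 (adjusted p = 0.00131, and 0.0112 averaged, limma). Its proliferative arrays read 3.93, 4.71, 5.66 and 4.73, with only array 3 above background, so the size of that rise is less certain. The list's summed level ran from 10.52 to 10.9997 in hypertrophic and from 9.80 to 10.1 in proliferative cells (log2). Of 11 smooth muscle and pericyte markers 1 rose and 1 fell, and none passed with averaged arrays. ACTA2, smooth muscle actin, was below background in both groups, as were MYLK, MYOCD and ABCC9, while MYH11 rose by at least 2.82 (estimate 3.25 ± 0.77, adjusted p = 0.0325, limma). The call of MYH11 was lost when arrays were averaged (adjusted p = 0.177, limma) and held in 1 of the 8 fits lacking 1 array. The marker that fell was KCNJ8, by at least 0.98 (estimate 1.32 ± 0.31, adjusted p = 0.031, and 0.113 averaged, limma). KCNJ8 passed in 3 of the 8 fits lacking 1 array. The summed level ran from 11.78 to 11.97 in hypertrophic and from 11.6 to 12.2 in proliferative cells.

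Of 17 perichondrium and fibroblast markers 3 rose, or 2 with averaged arrays, 1 fell, or none averaged, and TWIST2, PDGFRA and SCX were below background in both groups. The summed level of that list ran from 13.1 to 14.3 in hypertrophic and from 13.84 to 13.95 in proliferative cells. THBS4, MKX and COL6A3 rose by 1.85, 2.14 and 1.05 (adjusted p = 0.00304, 0.0230 and 0.00669, limma). With averaged arrays THBS4 and COL6A3 passed (adjusted p = 0.0321 and 0.0344, limma) and MKX did not (adjusted p = 0.132, limma), and MKX passed in 4 of the 8 fits lacking 1 array. The marker that fell was TWIST1, with a difference of -0.75 (adjusted p = 0.0499, and 0.113 averaged, limma). TWIST1 was named after its values were seen. The median of that list was 0.06, against -0.01 over all genes. Of 10 leukocyte markers 2 rose, or 1 with averaged arrays, 1 fell, or none averaged, and PTPRC, CYBB and TLR4 were below background in both groups. The summed level ran from 9.59 to 10.5 in hypertrophic and from 8.29 to 8.66 in proliferative cells, and LAPTM5 rose by 2.96 ± 0.32 (adjusted p = 0.00129, and 0.0241 averaged, limma). CD3E had a difference of -0.47 ± 0.10 (adjusted p = 0.0267, and 0.107 averaged, limma). Of 10 osteoclast markers 2 rose, or 1 with averaged arrays, and 1 fell, or none averaged. CALCR, OCSTAMP and DCSTAMP were below background in both groups. Summed levels ran from 12.97 to 13.3 in hypertrophic and from 13.1 to 13.6 in proliferative cells. ATP6V0D2 changed most, from a proliferative mean of 4.42, below background, to a hypertrophic mean of 7.30. Its difference was 2.88 ± 0.38, or no less than 2.49 given background (limma adjusted p = 0.00338). ATP6V0D2 also passed with averaged arrays (limma adjusted p = 0.0286). TNFRSF11A rose by 0.49 and NFATC1 had a difference of -0.83 (limma adjusted p = 0.0285 and 0.0131). Neither passed with averaged arrays. None of 8 osteoblast and 7 erythroid markers passed in limma, whose summed levels ran from 12.8 to 13.4 and from 13.3 to 13.5 in hypertrophic, and from 12.9 to 13.1 and from 10.9 to 13.5 in proliferative cells. The part of other cells in the differences of EFEMP1, FBN1 and MFAP5 was not tested.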

How the data were processed

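RNA of 8 pooled samples was hybridised to Affymetrix chicken arrays. The deposited log2 values were made by the authors with RMA, per the submitters' processing notes. The RMA software is not given in the sources used here. Symbols are the platform annotation's, brought up to date through gene IDs with RefSeq's GRCg7b table. Of 38535 probe sets, 96 controls were left out. Of the 38439 tested, 27168 had 1 symbol, 177 several and 11094 none. Differences were fitted in R 4.3.3 by limma 3.58.1 (lmFit, then eBayes). Its p-values were two-sided and adjusted by Benjamini and Hochberg's method across the 38439 probe sets, at a threshold of 0.05. The fit was tested on simulated data. A gene was represented by its probe set with the highest mean. Where 1 group mean lay below background, the difference is at least that found with each array of that group set to at least 4.75. This bound leaves out sampling error. Summed levels are log2 of summed linear values.

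The members and lists were chosen with earlier results of these data known. Named genes are every member probe set and the 3 nearest to EFEMP1. From the lists they are up to 4 passing genes per pathway list and up to 3 per marker list, by size of difference. Where none passed, up to 2 were taken by p. Not every gene that this rule took is given with its values here. Sequences of the members were not used here.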

Additional observations from a re-analysis of the deposited data

Results flagged for a closer look

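Within groups of 4 arrays, the gap of the most extreme array to its neighbour was set against the group's range by Dixon's test at its 95% critical value. Chance flags about 1 in 20 groups, or 2 of the 40 groups of member probe sets, and 3 passed. That expectation takes the 4 arrays as independent, which the near-identity of arrays 3 and 4 does not bear out, so the chance share here is not known. EFEMP1 passed in both stages, each time with array 1 as the low one: the ratio was 0.857 for proliferative array 1, at 5.10, and 0.891 for hypertrophic array 1, at 10.55. FBN2 passed by 1 of its 6 probe sets, with a ratio of 0.844 for proliferative array 2, at 4.41, which lies below background.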

How the results depend on the processing

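The 5 member probe sets that were higher became 3 after a filter on dim probe sets, which keeps 5 of the 20, 2 with arrays 3 and 4 averaged, 1 with arrays 1 and 2 alone, and 2 to 6 when 1 array was left out. None was lower in any of these fits (0 to 0 when 1 array was left out). The difference of EFEMP1 ran from 5.04 to 5.84 without 1 array. Of all probe sets, 1726 were higher and 1642 lower, against 428 and 327 with arrays 3 and 4 averaged, 486 and 683 with arrays 1 and 2 alone, 2680 and 2853 in a fit that blocks arrays 1 and 2 from arrays 3 and 4, and 831 to 2987 and 677 to 2048 without 1 array, the most without hypertrophic array 1. Pathway genes numbered 9 higher and 7 lower, against 1 and 0 with arrays 3 and 4 averaged, 14 higher in that block fit, 1 lower with arrays 1 and 2 alone, and 4 to 11 and 1 to 10 without 1 array. Marker genes numbered 17 higher and 13 lower, against 9 and 3 averaged, 7 lower with arrays 1 and 2 alone, 21 lower with the mean of all probe sets of a gene, and 9 to 22 and 7 to 18 without 1 array. Averaging and leaving arrays out fit fewer samples. The cause of the other shifts was not tested. No direction of a passing member probe set, or of a passing named gene followed across the settings, turned in any of them.

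With the median array's background level, an alternative chosen after seeing the data, 11 rather than 14 of the 20 member probe sets had both means below background. Whether the array numbers pair the samples was not settled. Deviations of same-numbered arrays correlated at 0.35, -0.004, 0.31 and 0.04 over 5344 bright probe sets, and not every array correlated best with its own number. These correlations cannot decide the question, because the arrays of a group are not independent and each group holds a nearly identical pair. With the replicate block, 1566 probe sets were higher and 1628 lower, 5 member probe sets were higher, and 10 pathway genes were higher and 7 lower. Of 49 named genes outside the members that were followed in this fit, 6 lost the call (CD3E, CD74, GLB1, LOXL2, SMAD7 and TNFRSF11A) and 4 gained it (DMP1, LOXL4, PHEX and TIMP3). TWIST1 and COL10A1 were not among the 49. Same-numbered arrays of EFEMP1 differed by 5.45, 5.42, 5.34 and 5.56, and its SE with the block was 0.11.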
